A study of Mus musculus with 21 samples.

Results

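Hedgehog signalling was described in mouse cumulus-oocyte complexes (COCs) through 8 genes of its core: the ligands Ihh and Dhh, the receptors and ligand-binding proteins Ptch1, Hhip and Smo, and the transcription factors Gli1, Gli2 and Gli3. They were found by symbol and make up 8 of the 56980 genes in the deposited count table. They were selected on their place in the pathway, with measured levels of these same 21 libraries already known. No single comparison or threshold set the choice, so no gene lies just outside it, and the tests on them below are descriptions of the measured values and give no independent support. A COC is an oocyte with the cumulus granulosa cells that surround it, and here it came from ovaries of wild-type (WT) mice. Uncultured COCs (START, 0 h, no treatment) were compared with COCs matured for 4, 8 or 12 h in alpha-MEM at 37 °C under 5% CO2. All cultures held 5% fetal bovine serum and mouse epidermal growth factor, together with either the solvent DMSO (CTL) or 10 µM of a proprotein convertase inhibitor (PCI). Each of the 7 groups had 3 replicates, which the labels call biological. The labels used here do not give how many mice or COCs entered each replicate, nor the animals' age.

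In the Hedgehog pathway a secreted ligand binds the receptor PTCH1, which otherwise holds the transducer SMO inactive, and SMO then lets the GLI factors act on target genes. Gli1, Ptch1 and Hhip are themselves textbook targets, and HHIP binds and sequesters ligand. In the mouse ovary granulosa cells are the known source of IHH and DHH, oocyte GDF9 is known to promote their expression, and theca precursors and stromal cells are the known responders. Hedgehog ligands are cut by their own carboxy-terminal part. Proprotein convertases, among them furin, cut many other secreted precursors, including growth factors of the TGF-beta family.

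The libraries held 19458618 to 37491828 counts, and 18192 genes passed the filter on low counts. Of the 8 Hedgehog genes, 7 passed and Hhip did not. All 10 oocyte markers and all 6 cumulus markers had counts in every group. Replicates varied most in START and, with the inhibitor, at 4 h. There the SD of log2 CPM had a median over genes of 0.44 in each group, beside 0.23 to 0.28 elsewhere. Oocyte markers summed to between 2319 and 10089 CPM over the START libraries. The 5 theca markers had a mean sum of 42.5 CPM in START, of which Aldh1a1 gave 40.8 CPM, and in the CTL libraries of 4 h the sum was 22.7 to 26.0 CPM. The other theca markers were few: Insl3 had 4 counts in START and 0 in all later libraries, and Cyp17a1 stayed at or under 0.590 CPM in each library. Levels are given as CPM, the count of a gene scaled to a common library size. A gene was called higher or lower at an adjusted p under 0.05 in edgeR's quasi-likelihood test with Benjamini-Hochberg adjustment over the 18192 genes, and ± after a log2 fold change is its standard error. In such bulk RNA, fewer cells of a type and less RNA per cell cannot be told apart.

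Ihh, the ligand with the most RNA, fell when COCs were cultured, and its level was lower again with the inhibitor. The gene (ENSMUSG00000006538) lies on chromosome 1 (74984474 to 74990831, minus strand, mm39). START libraries had 2298, 5964 and 6153 counts, which gave 76.4, 196 and 209.9 CPM in replicates 1, 2 and 3. In CTL the levels were 19.4, 37.2 and 43.3 CPM at 4 h, 13.2, 14.9 and 26.9 CPM at 8 h and 23.5, 22.3 and 17.4 CPM at 12 h. START replicate 1 was the lowest of its group, but it lay above all cultured libraries. The fall from START was 4.82-fold at 4 h (log2 -2.27 ± 0.40, adjusted p = 0.000158), 8.75-fold at 8 h (-3.13 ± 0.41, adjusted p = 6.6e-06) and 7.62-fold at 12 h (-2.93 ± 0.41, adjusted p = 9.48e-06), in edgeR's quasi-likelihood test. These comparisons share the START libraries. Within CTL, the step from 4 to 8 h was not called (log2 -0.86 ± 0.38, adjusted p = 0.113). It passed without CTL 4 h replicate 1 (adjusted p = 0.0440) or without CTL 8 h replicate 3 (adjusted p = 0.04998). The summed level of the 6 cumulus markers also differed with time: 7578 ± 3090.4 CPM in START, 5643 ± 1274 at 4 h, 2705 ± 456 at 8 h and 1704 ± 189.7 at 12 h in CTL (mean ± SD, n = 3). Most of that sum was Inha, whose mean was 7098 CPM before culture and 1546 CPM after 12 h of control culture. The markers did not all fall. Against START, 1 of the 6 was called higher and 3 lower at each of 4, 8 and 12 h. By 4 h the marker Has2 had gone from a mean of 13.4 to 1330 CPM. Foxl2 went from 22.5 to 9.21 CPM over that step and was at 16.7 CPM by 8 h. Fshr went from 315 CPM in START to 22.3 CPM at 4 h and 6.03 CPM at 8 h in CTL. Slc38a3 went from 78.9 to 1.38 and 0.685 CPM over the same times. Amh was at 50.5, 39.7 and 48.2 CPM. The part of the sum or of single markers in the Ihh values was not tested.

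With the inhibitor, Ihh levels were 5.33, 12.8 and 7.05 CPM at 4 h, 2.50, 4.13 and 2.97 CPM at 8 h and 6.11, 4.34 and 4.09 CPM at 12 h. Each PCI library lay below each CTL library of its time. The level was 5.69-fold lower than in CTL at 8 h (log2 -2.51 ± 0.42, adjusted p = 0.00195) and 4.33-fold lower at 12 h (-2.11 ± 0.41, adjusted p = 0.00799). The 12 h call was lost without PCI replicate 3 (-2.02, adjusted p = 0.0617). At 4 h the difference was of like size, 3.97-fold (-1.99 ± 0.40), with an adjusted p of 0.0550. That 4 h result passed with the replicate number as a block (adjusted p = 0.0402), with DESeq2 (adjusted p = 0.000412), without CTL replicate 1 (0.0316) and without PCI replicate 2 (0.0190). It did not pass in a fit to the 6 libraries of 4 h alone (adjusted p = 0.623). The difference between the 12 h and 4 h effects was log2 -0.12, with a 95% interval from -1.30 to 1.05. The 6 cumulus markers, taken as a sum that was mostly Inha, overlapped between the arms. They ranged from 2179 to 2982 CPM in CTL and from 2857 to 3162 CPM in PCI at 8 h, and from 1497 to 1869.6 CPM and 1286 to 2007 CPM at 12 h. Of the 6, 1 was called lower at 8 h, and 1 higher and 1 lower at 12 h. The gene lower at both times was Has2, the hyaluronan synthase of cumulus expansion, at 651 CPM in CTL and 113 CPM in PCI at 8 h (log2 -2.52 ± 0.36, adjusted p = 0.000752) and 107 and 22.6 CPM at 12 h (-2.25 ± 0.36, adjusted p = 0.00256). Fshr was higher in PCI at both times, and Slc38a3 was lower at 8 h and higher at 12 h. Fshr had 6.03 CPM in CTL and 10.3 CPM in PCI at 8 h, and 11.7 and 17.4 CPM at 12 h. Slc38a3 had 0.685 and 0.475 CPM at 8 h, and 1.00 and 4.07 CPM at 12 h. Amh was also lower in PCI at 8 h, at 48.2 CPM in CTL and 13.8 CPM in PCI. Its arms did not overlap there, but the difference was not called. At 12 h Amh had 21.1 CPM in CTL and 26.1 CPM in PCI, and the arms overlapped. Inha had 1982 and 2862 CPM at 8 h, and 1546 and 1556 CPM at 12 h. Foxl2 had 16.7 and 15.9 CPM at 8 h, and 16.82 and 16.83 CPM at 12 h. Of all genes 3.67% and 1.98% were called at 8 and 12 h. The part of these markers in the Ihh difference was not tested. The order of Ihh levels was START, then the 3 CTL groups, then the 3 PCI groups. Neighbours within the CTL block and within the PCI block overlapped. START did not overlap with CTL at 4 h, nor did the lowest CTL group, 8 h, with PCI at 4 h.

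The bases just before the Ihh start are shown because Ihh was the member called lower in PCI at both 8 and 12 h. They are the 250 bases upstream in RefSeq on GRCm38.p6, chr1:74951673-74951922, minus strand, written 5′ to 3′ along the gene. They hold none of the motifs that are spelled out with the Ptch1 promoter, so no letter is in capitals.
Ihh: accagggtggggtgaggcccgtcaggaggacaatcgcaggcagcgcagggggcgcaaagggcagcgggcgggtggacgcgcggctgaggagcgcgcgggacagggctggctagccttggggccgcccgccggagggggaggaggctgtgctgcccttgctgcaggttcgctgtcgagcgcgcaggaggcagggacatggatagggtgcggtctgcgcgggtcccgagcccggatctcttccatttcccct

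Dhh, the other ligand made in granulosa cells, had far fewer counts (2475 in all 21 libraries against 22240), fell with culture and was not called between the arms. The gene (ENSMUSG00000023000) is on chromosome 15 (98789033 to 98796421, minus strand, mm39). The START libraries had 8.61, 13.3 and 17.8 CPM, and every cultured library had between 1.19 and 5.06 CPM. Cultured CTL groups averaged 1.59 ± 0.601, 2.25 ± 0.555 and 2.55 ± 0.795 CPM (SD, n = 3) at 4, 8 and 12 h. Dhh fell 8.33-fold by 4 h (log2 -3.06 ± 0.43, adjusted p = 1.56e-05) and was still 5.22-fold below START at 12 h (-2.38 ± 0.42, adjusted p = 0.000110). Its levels with the inhibitor overlapped those of CTL at all 3 times. The PCI groups averaged 3.10 ± 1.83, 3.12 ± 0.45 and 2.49 ± 0.580 CPM. The difference from CTL was log2 0.97 ± 0.41 at 4 h (adjusted p = 0.844), 0.47 ± 0.41 at 8 h (adjusted p = 0.714) and -0.02 ± 0.41 at 12 h (adjusted p = 1). Intervals at 95% ran from 0.08 to 1.85, from -0.41 to 1.34 and from -0.89 to 0.86. Dhh shares 3389 bases of its span with Rhebl1 on the same strand, so its counts are uncertain to that extent.

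Because gene lengths differ, the ligands were set beside each other per kb of exon. On that scale Ihh was 94.1% ± 1.46 of the summed Ihh, Dhh and Shh level in START (SD, n = 3). The share was 94.998% ± 3.36, 90.7% ± 0.995 and 91.2% ± 3.45 in CTL at 4, 8 and 12 h. In PCI it was 76.5% ± 12.8, 56.3% ± 5.88 and 71.4% ± 3.88. The CTL and PCI ranges did not overlap at any of the 3 times, but at 4 h they nearly met, at 91.2% in the lowest CTL library and 90.8% in the highest PCI library. The summed ligand level per kb averaged 55.8 CPM in START, 6.62 in CTL and 1.85 in PCI at 8 h, and 7.55 and 2.22 at 12 h. Sonic hedgehog, Shh, added little, with 13 to 31 counts per group over 3 libraries.

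**Figure D1:**
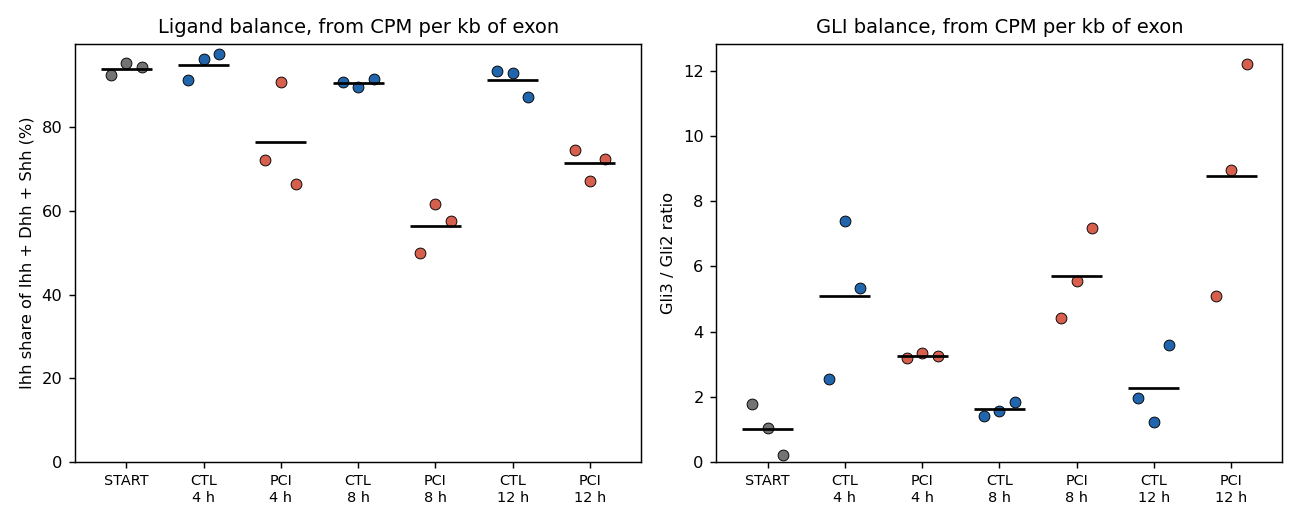
Left, the Ihh share (%) of the summed Ihh, Dhh and Shh level, from CPM per kb of exon; right, the ratio of Gli3 to Gli2 per kb; points are libraries, bars are means (n = 3). The Ihh share stays at 87.3% or more in START and CTL and is 49.96 to 61.6% in PCI at 8 h, and the Gli3 to Gli2 ratio is higher in every PCI library than in every CTL library at 8 and 12 h.

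Ptch1, the ligand receptor and a pathway target, did not follow Ihh: it fell early and came back while Ihh stayed low. The gene (ENSMUSG00000021466) is on chromosome 13 (63656142 to 63721412, minus strand, mm39). START libraries had 44.9, 43.5 and 55.8 CPM. CTL had 20.4, 10.3 and 14.0 CPM at 4 h, 31.7, 47.7 and 36.8 CPM at 8 h and 59.1, 66.1 and 64.7 CPM at 12 h. The 4 h libraries were thus the lowest and did not overlap with START or with 8 h. Ptch1 fell 3.22-fold by 4 h (log2 -1.69 ± 0.27, adjusted p = 6.5e-05) and rose 2.60-fold from 4 to 8 h (1.38 ± 0.27, adjusted p = 0.00153). At 12 h all 3 CTL libraries were above all START libraries, but the difference was not called (0.40 ± 0.26, adjusted p = 0.216). PCI libraries had 23.7, 12.2 and 25.2 CPM at 4 h, 75.4, 69.6 and 52.5 CPM at 8 h and 61.0, 53.5 and 81.1 CPM at 12 h. At 8 h each PCI library was above each CTL library, by log2 0.77 ± 0.26 in the mean, with an adjusted p of 0.140 (0.0455 in a fit to those 6 libraries alone). At 12 h the difference was 0.04, with a 95% interval from -0.52 to 0.60. PCI at 8 and 12 h and CTL at 12 h were the 3 highest groups and overlapped with each other.

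The Ptch1 promoter is shown because Ptch1 is the best-known GLI target among the members. The 250 bases before its start in RefSeq (GRCm38.p6, chr13:63565736-63565985, minus strand) are written 5′ to 3′ along the gene. Capitals mark the letters GGCGCC, which begin at position -161 from the start and read the same on both strands.
Ptch1: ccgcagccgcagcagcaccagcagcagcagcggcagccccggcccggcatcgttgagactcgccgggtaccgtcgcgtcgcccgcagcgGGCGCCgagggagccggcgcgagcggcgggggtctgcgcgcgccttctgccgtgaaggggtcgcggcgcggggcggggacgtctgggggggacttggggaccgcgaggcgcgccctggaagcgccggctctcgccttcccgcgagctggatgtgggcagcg
RefSeq promoters were matched for 7 of the 8 genes and searched on both strands for 4 motifs. GACCACCCA, the core site of GLI factors, was in none of the 7, and it is in 0.225% of the 32851 mouse promoters of the same length. TGANTCA (AP-1) was in none either, against 6.75% of all. GGCGCC, a site of SMAD1 and SMAD5, was in Ptch1 alone, against 9.59% of all. TGACGTCA, the cyclic AMP response element, was in Hhip alone, at -75, against 1.55% of all. The motifs did not overlap, and a match describes letters in this window and no binding.

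Smo, the transducer that PTCH1 restrains, had the highest level per kb of exon among the receptors in START (14.7 CPM per kb against 3.39 for Ptch1) and fell and rose over the same steps as Ptch1. Its locus (ENSMUSG00000001761) is on chromosome 6 (29735502 to 29761364, plus strand, mm39). START libraries had 53.3, 83.0 and 112 CPM, and CTL libraries 40.0, 34.0 and 42.0 CPM at 4 h. All 4 h levels were below START. Smo fell 2.14-fold by 4 h (log2 -1.10 ± 0.22, adjusted p = 0.000684) and rose 1.96-fold from 4 to 8 h (0.97 ± 0.22, adjusted p = 0.00467). CTL levels then ranged from 67.4 to 86.6 CPM at 8 h and from 93.5 to 111 CPM at 12 h. The 12 h level against START was log2 0.28 ± 0.22 (adjusted p = 0.298), and without START replicate 3, its highest library, it was 0.64 and called (adjusted p = 0.0159). With the inhibitor the ranges were 31.0 to 55.3, 70.8 to 89.5 and 85.1 to 97.2 CPM, which overlapped with CTL at all 3 times. The differences from CTL were log2 0.20, 0.14 and -0.14, and their 95% intervals ran from -0.27 to 0.67, from -0.34 to 0.61 and from -0.61 to 0.33. Over the 21 libraries log2 CPM of Ptch1 and Smo had a Pearson r of 0.93, a description over libraries that share groups and time. The step between CTL at 8 h and PCI at 4 h was the single place in the order of Smo levels where neighbouring groups did not overlap.

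Hhip, the decoy receptor, had very few counts. Its locus (ENSMUSG00000064325) is on chromosome 8 (80692480 to 80784635, minus strand, mm39). Its counts ranged from 0 to 22 per library and came to 106 in all 21, with 0 in 4 libraries. START had 8, 0 and 0 counts and CTL at 4 h had 10, 4 and 22. The ratio of CPM between CTL at 4 h and START was 4.57, with an exact 95% interval from 2.09 to 11.4 for counting error only. All neighbouring groups in the order of Hhip levels overlapped. Hhip was not tested in the fit to all libraries. Of 6 alternatives that tested it in CTL at 4 h against START, 1 called it higher, the fit without START replicate 1 (adjusted p = 0.0160), which leaves START with 0 counts. The same fit called it higher at 8 h (adjusted p = 0.0421), and no alternative called it between PCI and CTL.

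**Figure D2:**
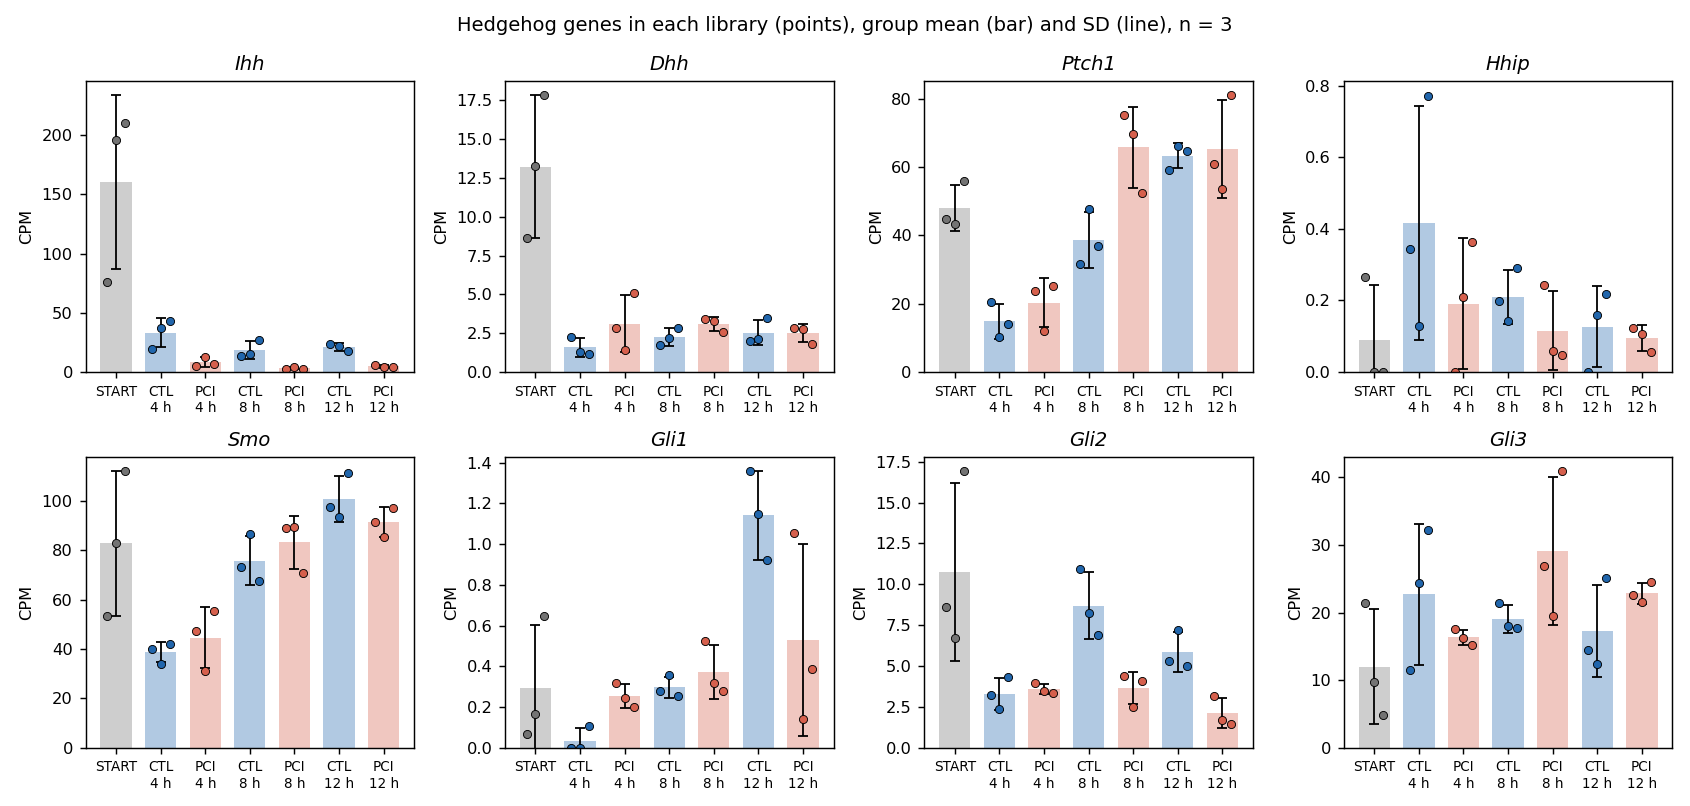
Level (CPM) of each of the 8 Hedgehog genes by group; points are libraries, bars are means and lines are SDs, cut at 0 (n = 3). Ihh and Dhh are highest in START, Ptch1 and Smo are lowest at 4 h and recover, and Gli2 is lower in PCI than in CTL at 8 and 12 h.

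Of the GLI factors, Gli1 is the one whose own RNA is a standard readout of the pathway, and it was barely detected. The gene (ENSMUSG00000025407) spans part of chromosome 10 (127165751 to 127177843, minus strand, mm39). START libraries had 2, 5 and 19 counts, CTL at 4 h had 0, 0 and 3, CTL at 8 h had 7, 10 and 7, and CTL at 12 h had 43, 43 and 21. PCI libraries had 10, 7 and 6 counts at 4 h, 13, 11 and 6 at 8 h and 34, 4 and 7 at 12 h. CTL at 12 h was the highest group, at 1.14 ± 0.218 CPM (SD, n = 3) against 0.293 ± 0.311 CPM in START. The rise was 3.87-fold (log2 1.95 ± 0.77, adjusted p = 0.0415), and it passed the threshold in 1 of 6 fits that each left out a library. It was lost without START replicate 1 or 2 (adjusted p = 0.152 and 0.134) and without CTL 12 h replicate 1, 2 or 3 (0.0941, 0.0767 and 0.0572). CTL at 4 h, with 3 counts, was also called below START and below 8 h (adjusted p = 0.0328 and 0.0426). As ratios with exact 95% intervals for counting error, these were 0.117 (0.0227 to 0.383) for 4 h against START and 8.76 (2.66 to 45.5) for 8 h against 4 h. The first call was lost without START replicate 3 and without CTL 4 h replicate 1 or 2 (adjusted p up to 0.323), and the second without CTL 4 h replicate 1 or 2 or any CTL 8 h replicate (up to 0.149). No PCI difference was called. At 12 h PCI replicate 1, with 1.05 CPM, was in the CTL range, and replicates 2 and 3, with 0.143 and 0.386 CPM, were below it (log2 -1.08 ± 0.74, adjusted p = 0.750). At 4 h PCI had 23 counts and CTL 3, a ratio of 7.52 (2.27 to 39.1; adjusted p of the fit 0.659).

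Gli2, which acts mainly as an activator, was the other member called lower with the inhibitor. It (ENSMUSG00000048402) lies on chromosome 1 (118761862 to 118981349, minus strand, mm39). START libraries had 8.61, 6.72 and 17.0 CPM. CTL libraries had 3.25, 2.35 and 4.31 CPM at 4 h, 10.9, 8.25 and 6.89 CPM at 8 h and 5.33, 7.22 and 4.99 CPM at 12 h. Like Ptch1 and Smo, Gli2 was low at 4 h, and those libraries did not overlap with START or with 8 h. It fell 3.25-fold by 4 h (log2 -1.70 ± 0.37, adjusted p = 0.00127) and rose 2.63-fold from 4 to 8 h (1.39 ± 0.37, adjusted p = 0.0110). The rise missed the threshold without CTL 4 h replicate 2 (1.22, adjusted p = 0.0574). At 12 h Gli2 was called below START (-0.88 ± 0.36, adjusted p = 0.0493), a result that turned on START replicate 3. Without that library the difference was -0.31 (adjusted p = 0.472). Without START replicate 1 or CTL 12 h replicate 1 or 3 the call was also lost (adjusted p = 0.0533, 0.132 and 0.171).

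With the inhibitor the Gli2 means were 3.61, 3.65 and 2.11 CPM at 4, 8 and 12 h. PCI libraries had 3.96, 3.49 and 3.37 CPM at 4 h, 4.36, 2.51 and 4.09 CPM at 8 h and 3.16, 1.72 and 1.44 CPM at 12 h. The arms overlapped at 4 h (log2 0.13 ± 0.37) and did not overlap at 8 and 12 h. At 12 h Gli2 fell 2.75-fold against CTL (-1.46 ± 0.37, adjusted p = 0.0485). Leaving out CTL replicate 1, 2 or 3 gave adjusted p of 0.115, 0.171 and 0.0969, and leaving out PCI replicate 2 or 3 gave 0.177 and 0.232. At 8 h the difference was -1.25 ± 0.37 (adjusted p = 0.0690), and DESeq2 gave an adjusted p of 0.0124 and the fit to those 6 libraries alone 0.0415. The difference between the 12 h and 4 h effects was -1.59 ± 0.52 (adjusted p = 0.482). Summed markers of other cell types also separated the arms at 12 h, through few genes of each list. The 8 stroma markers summed to 33.7 to 44.1 CPM in CTL and 17.6 to 19.6 CPM in PCI, with 1 of 6 tested called lower, Col1a1 (11.3 and 1.32 CPM). The 4 smooth muscle markers summed to 54.8 to 74.0 and 18.0 to 31.7 CPM, with 1 of 3 tested called. That gene was Acta2 (53.6 and 14.4 CPM), while Myh11 (7.76 and 9.42 CPM) and Des (0.275 and 0.521 CPM) were not lower in PCI. The 5 leukocyte markers summed to 11.8 to 14.1 and 1.27 to 4.74 CPM, with 1 of 4 tested called, Cd52 (9.52 and 0.412 CPM). The theca sum, mostly Aldh1a1, was 3.60 to 4.69 CPM in CTL and 7.44 to 14.2 CPM in PCI. The part of these sums in the Gli2 values was not tested. Along the order of Gli2 levels, the one gap between neighbours lay between CTL at 12 h and PCI at 8 h.

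The 250 bases before the Gli2 start are shown because Gli2 and Ihh were the members called lower at 12 h. They are from RefSeq (GRCm38.p6, chr1:119053620-119053869, minus strand), 5′ to 3′ along the gene, and hold none of the 4 motifs, so no letter is in capitals.
Gli2: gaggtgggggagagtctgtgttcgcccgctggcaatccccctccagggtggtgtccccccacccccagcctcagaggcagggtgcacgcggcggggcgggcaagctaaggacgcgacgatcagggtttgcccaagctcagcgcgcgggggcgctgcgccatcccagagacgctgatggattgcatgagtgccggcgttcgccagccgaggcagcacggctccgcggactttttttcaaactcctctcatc

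Gli3, which acts mainly as a repressor when ligand is absent, was not called in any comparison. It (ENSMUSG00000021318) lies on chromosome 13 (15637820 to 15904611, plus strand, mm39). START libraries had 21.4, 9.77 and 4.81 CPM, the widest relative spread of its groups. CTL averaged 22.7 ± 10.5, 19.1 ± 2.07 and 17.3 ± 6.81 CPM (SD, n = 3) at 4, 8 and 12 h, and PCI 16.3 ± 1.14, 29.1 ± 11.0 and 22.9 ± 1.52 CPM. Groups next to each other in level all overlapped. Against START the differences in CTL were log2 0.92 ± 0.42, 0.67 ± 0.42 and 0.52 ± 0.42 (adjusted p = 0.109, 0.215 and 0.313). Without START replicate 1, the highest of its group, they were 1.67, 1.44 and 1.29 and all were called (adjusted p = 0.00340, 0.00931 and 0.0138). The 4 h difference was also called without CTL 4 h replicate 1 (1.34, adjusted p = 0.0281). Between the arms the differences were -0.48, 0.61 and 0.41, with 95% intervals from -1.37 to 0.42, from -0.29 to 1.5 and from -0.49 to 1.30. Per kb of exon, Gli3 stood to Gli2 as 1.009 ± 0.789 in START. The ratio was 1.61 ± 0.219 in CTL and 5.71 ± 1.39 in PCI at 8 h, and 2.25 ± 1.22 and 8.76 ± 3.57 at 12 h. These did not overlap, while at 4 h PCI (3.17 to 3.33) lay inside the CTL range (2.55 to 7.41).

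**Figure D3:**
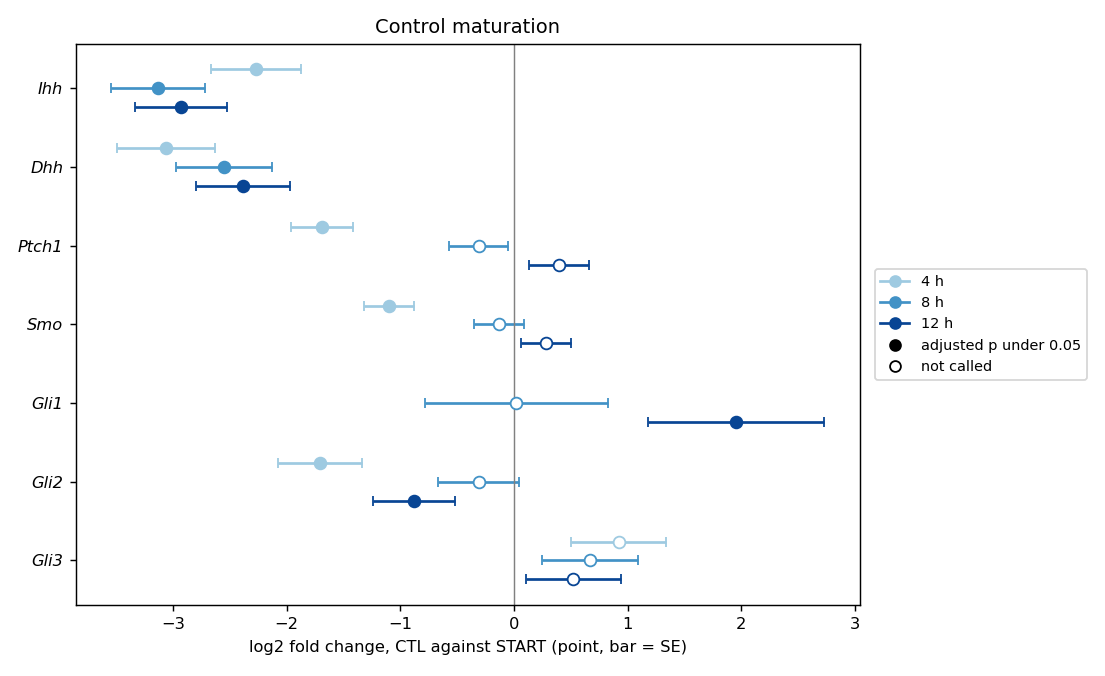
Log2 fold change of CTL at 4, 8 and 12 h against START for the 7 tested genes; bars are SEs, filled points have an adjusted p under 0.05, and Gli1 at 4 h is left out because CTL had 3 counts. Ihh and Dhh stay at -2.27 or below at all 3 times, and Ptch1 and Smo return to near 0 by 8 h.

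**Figure D4:**
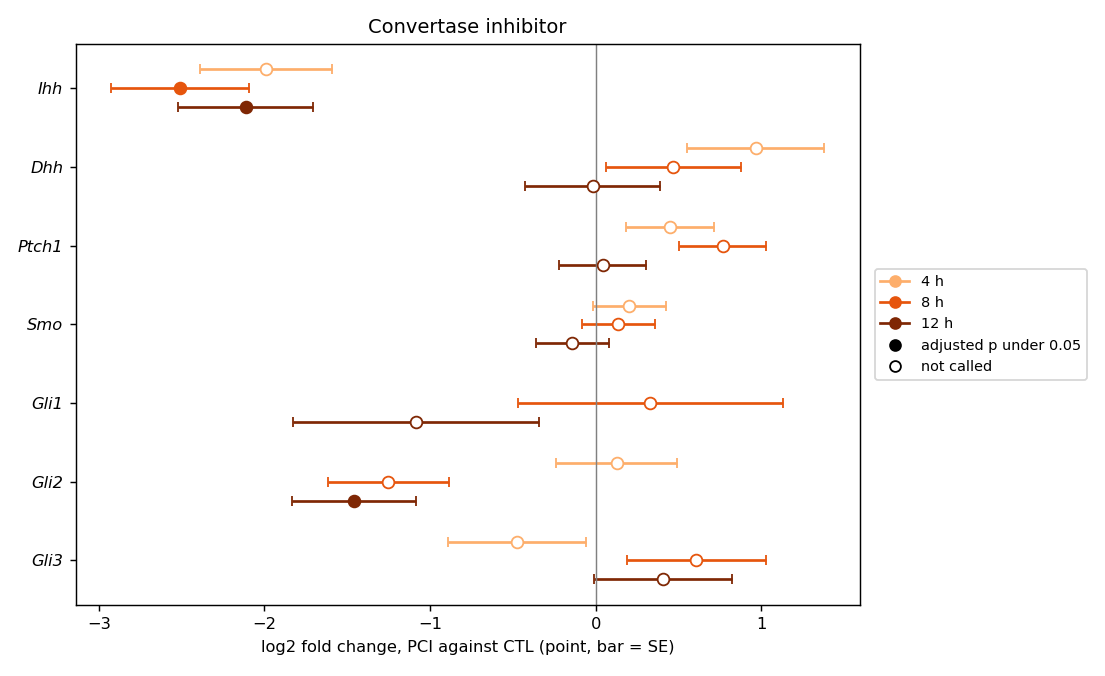
Log2 fold change of PCI against CTL at 4, 8 and 12 h for the 7 tested genes; bars are SEs, filled points have an adjusted p under 0.05, and Gli1 at 4 h is left out because CTL had 3 counts. Ihh lies between -2.51 and -1.99 at the 3 times, and Gli2 moves from 0.13 at 4 h to -1.46 at 12 h.

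Counted together, 6 of the 7 tested genes were called lower in CTL at 4 h than in START, where 15.3% of all genes tested were called lower and 31.5% were called at all. At 8 h 2 were lower (20.6% of all genes lower, 41.3% called), and at 12 h 3 were lower and 1 higher (26% and 25.1% of all genes, 51% called). From 4 to 8 h in CTL 4 of 7 were called higher, against 12.1% of all genes (23.2% called), and none lower. From 8 to 12 h none was called (8.8% of all genes, with 2 members at an unadjusted p under 0.05 and 0 called by DESeq2). The 4 h CTL libraries enter both the first and the last but one of these comparisons. Between PCI and CTL 0, 1 and 2 of 7 were called at 4, 8 and 12 h, all lower, where 0.132%, 3.67% and 1.98% of all genes were called and 0.121%, 1.72% and 1.4% were called lower. At 4 h 3 members had an unadjusted p under 0.05 and DESeq2 called 1. The arms did not overlap for 2, 3 and 2 members, where this held for 7.28%, 23.2% and 21.2% of all genes. No member was called for the change of the PCI effect from 4 to 12 h (0.0715% of all genes; 2 members at an unadjusted p under 0.05, 0 by DESeq2). The median log2 fold change of the members between PCI and CTL was 0.20, 0.33 and -0.14, beside 0.04, -0.02 and 0.03 over all genes.

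Beyond the core, 38 other genes of the pathway were listed and 35 were tested. Between PCI and CTL, none was called at 4 h (2 at an unadjusted p under 0.05). At 8 h 1 was lower, at 12 h 3 were lower, and none was higher. Of all genes 0.132%, 3.67% and 1.98% were called at these times, and 0.121%, 1.72% and 1.4% were called lower. At 4 h 908 of the 18192 genes had an unadjusted p under 0.05. Against START, CTL had 4 higher and 8 lower at 4 h, 8 and 10 at 8 h and 9 and 13 at 12 h. These counts of 35 stand beside the 31.5%, 41.3% and 51% of all genes called. The 12 h counts were 1 higher and 3 lower of 6 tested for ligand release, 2 and 2 of 6 for co-receptors, 2 and 5 of 12 for transduction, 3 and 1 of 6 for GLI turnover and 1 and 2 of 5 for targets. The median log2 fold change of the 35 genes was -0.08 at 12 h, beside -0.06 over all genes.

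Among the 6 co-receptors Boc was the one called lower with the inhibitor. It is a surface protein that binds ligand alongside PTCH1. It rose from 20.8 ± 1.47 CPM in START to 162 ± 21.9 at 4 h (SD, n = 3; 7.76-fold, log2 2.96 ± 0.23, adjusted p = 1.32e-08) and stayed at 188 ± 55.8 and 149 ± 21.1 CPM at 8 and 12 h. In PCI it was 125 ± 37.0, 111 ± 11.7 and 77.1 ± 15.7 CPM. The fall at 12 h was 1.94-fold (-0.95 ± 0.22, adjusted p = 0.0248). It was lost without CTL replicate 1 or 2 (adjusted p = 0.115 and 0.0699) and without PCI replicate 2 or 3 (0.116 and 0.0951). Gas1, another co-receptor, rose from 1.60 CPM in START to 21.8 CPM in CTL at 12 h (log2 3.77 ± 0.88, adjusted p = 0.00151), a larger fold than that of Boc. In PCI at 12 h Gas1 had 69.8 ± 29.3 CPM, and its libraries (44.1 to 102 CPM) lay above those of CTL (11.7 to 41.4 CPM). That difference, log2 1.68 ± 0.78, was not called (adjusted p = 0.446). Cdon, which is related to Boc, fell by 0.73 ± 0.21 on the log2 scale by 4 h (adjusted p = 0.0106). The call was lost without START replicate 3 (log2 -0.60, adjusted p = 0.0534). It was also lost without the filter on low counts (adjusted p = 0.0639) and in the compared groups alone (0.0731).

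Ligand release and the targets gave the other inhibitor calls. Scube3, of a family that carries ligand away from the producing cell, had 19.4 ± 3.11 CPM in CTL and 7.94 ± 3.12 in PCI at 8 h, and 19.0 ± 5.30 and 6.22 ± 4.37 CPM at 12 h. The 12 h fall was called (log2 -1.60 ± 0.40, adjusted p = 0.0448), and without CTL replicate 1 or 3 or PCI replicate 1 or 3 it was not (adjusted p = 0.190, 0.125, 0.191 and 0.221). Nor was it called in the compared groups alone (adjusted p = 0.0688). Mycn, a proliferation gene and a Hedgehog target in the cerebellum, fell 2.90-fold at 8 h (-1.54 ± 0.28, adjusted p = 0.00349) and 2.41-fold at 12 h (-1.27 ± 0.28, adjusted p = 0.0207). Levels were 18.7 ± 6.66 and 10.9 ± 2.60 CPM in CTL and 6.42 ± 0.635 and 4.52 ± 0.736 CPM in PCI. The 12 h call was lost without CTL replicate 1 and without each PCI replicate in turn (adjusted p from 0.0520 to 0.120). Mycn also fell in CTL, by 1.83 ± 0.28 on the log2 scale at 12 h against START (adjusted p = 2.5e-05). Ccnd2, a cyclin, fell from 300.05 CPM in START to 61.8 CPM in CTL at 12 h (-2.28 ± 0.24, adjusted p = 3.2e-07). Foxf2 had 1 count in START and 110, 200 and 213 counts in CTL, and the ratio at 4 h was 112 (exact 95% interval 19.6 to 4455, counting error only).

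In the lists for signal transduction and GLI turnover no gene was called between the arms at any of the 3 times by edgeR (1 of 12 and 0 of 6 at an unadjusted p under 0.05 at 12 h). Of all genes 0.132%, 3.67% and 1.98% were called at 4, 8 and 12 h. At 12 h against START 7 of 12 and 4 of 6 were called, near the 51% of all genes, and at 4 h 5 of 12 and 1 of 6, beside 31.5%. Evc2, a ciliary partner of SMO, fell from 291 CPM in START to 45.0 CPM in CTL at 4 h (log2 -2.69 ± 0.24, adjusted p = 6.96e-08) and was at 62.4 CPM at 12 h, beside 62.2 CPM in PCI. Ift88, which builds the primary cilium, fell by 2.27 ± 0.23 on the log2 scale by 4 h (adjusted p = 2.21e-07). Ulk3, a kinase that acts on GLI factors, rose to 42.1 CPM at 12 h from 9.17 CPM in START (2.20 ± 0.34, adjusted p = 2.77e-05). Gpr161, a ciliary receptor that restrains the pathway, rose by 1.77 ± 0.26 (adjusted p = 1.9e-05). Of the ubiquitin ligase parts that act on GLI proteins, Spop rose 2.34-fold by 12 h (adjusted p = 6.99e-07) and Btrc fell 2.90-fold (adjusted p = 6.05e-05). Of the 62 such results for named genes, 23 lost the call in at least 1 alternative, and none changed sign.

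**Figure D5:**
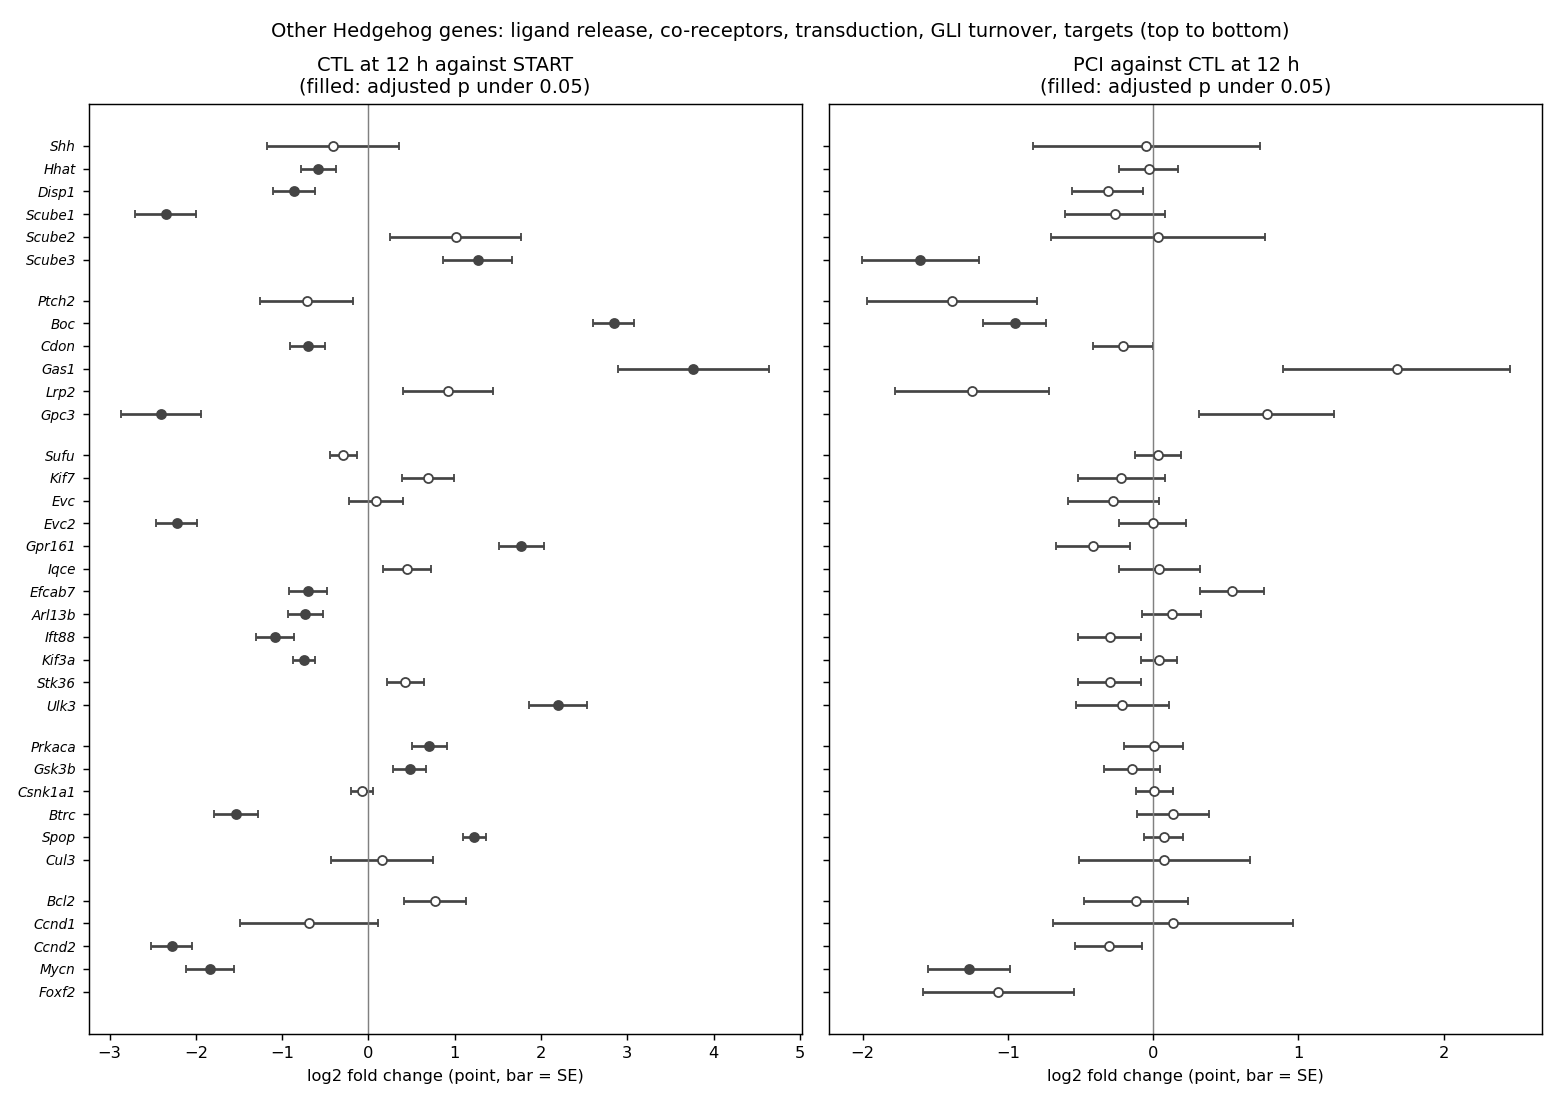
Log2 fold change of the other 35 tested Hedgehog genes, CTL at 12 h against START (left; Foxf2 is left out because START had 1 count) and PCI against CTL at 12 h (right); bars are SEs and filled points have an adjusted p under 0.05. On the left 9 of the called genes are higher, counting Foxf2, and 13 lower; on the right the 3 called genes, Scube3, Boc and Mycn, are all lower.

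The genes whose log2 CPM followed each tested member most closely over the 21 libraries were named by rank of Pearson r, as a description over libraries that share groups. For Ihh they were Dock9, Jun and Arhgap28 (r = 0.91, 0.91 and 0.90). For Ptch1 they were Sesn1, Rab33a and Gpam (0.97, 0.96 and 0.96), and for Smo they included Exoc7 and Zer1 (0.98 each). Dhh was nearest to Gprasp1, Kctd14 and Kif15 (0.93, 0.92 and 0.92). Likeness was lower for Gli2 (Hjurp, 0.88, P4ha2, 0.87, and Mroh2a, 0.85), Gli1 (Nudt13, 0.85, Inafm1, 0.82, and Ap5s1, 0.81) and Gli3 (Ammecr1l, 0.80, Dse, 0.78, and Ncoa6, 0.78).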

How the data were processed

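COC RNA was made into stranded, poly(A)-selected libraries, per the labels' protocols. The authors deposited whole-number counts per gene in 1 table of 21 libraries, and 0 columns were left unused. The submitters' processing notes name cutadapt, STAR, HTSeq and mm39. The sources used here name no tool version, annotation release or strand setting, so overlapping genes are uncertain.

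The analysis used R 4.3.3 with edgeR 4.0.16 and limma 3.58.1. After filterByExpr, TMM scaling was applied and 1 model with a mean for each of the 7 groups was fitted, leaving 14 residual degrees of freedom. Tests were robust quasi-likelihood F tests, two-sided. An SE was obtained by dividing the absolute log2 fold change by the root of F, and 95% intervals use 14 degrees of freedom. CPM are relative to the TMM-scaled library size, and log2 CPM used a prior count of 2. The biological coefficient of variation was 29.5%. The procedure was tested on simulated data for PCI against CTL at 12 h alone, with changes set only in genes of higher count. That test does not cover genes with few counts, such as Gli1, or the comparisons with START. Exon lengths are merged exons of GENCODE M21, which is another release than the authors' build.

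Members, lists and tests were chosen with earlier results of these data known. The text names all 8 members, up to 4 called genes with the smallest p per other list and comparison, and the 3 genes most alike each tested member, of which 1 is not reported here. Every pair of replicates differed by more than sampling noise (chi-square over its degrees of freedom, 25.4 at the least). The labels do not say what separates the biological replicates, and p-values measure the spread between these samples. Deviations of same-numbered libraries were compared between PCI and CTL. Their correlations were 0.32, 0.52 and 0.14 at 4 h, 0.17, 0.11 and 0.27 at 8 h and 0.23, 0.04 and 0.17 at 12 h. Between CTL at 8 and 12 h they were 0.19, 0.23 and 0.17. At 4 h PCI replicate 3 correlated better with a CTL library of another number (0.24). Any pairing is thus read from the data and not from a label. The main fit was unpaired, and the replicate number entered as a block only in an alternative. Alternatives were library sizes alone, RLE factors, no filter, the replicate block, DESeq2 1.42.0, the compared groups alone, and each library left out.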

Additional observations from a re-analysis of the deposited data

How the results depend on the processing

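Of the members, Ihh and Dhh kept direction and call against START under every alternative run, and Ihh against CTL at 8 h did too. Ptch1, Smo and Gli2 at 4 h against START kept theirs in each fit that left out a library. So did Ptch1 and Smo from 4 to 8 h in CTL. Low counts limit Gli1 and Hhip, and the wide START group limits the comparisons with it. Scaling by library size alone moved the median log2 fold change of all genes from -0.05 to -0.17 (CTL at 4 h against START) and from -0.06 to -0.16 (CTL at 12 h against START). The cause of the moves below was not tested.

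With the replicate number as a block, 1 member was called between PCI and CTL at 4 h and 0 without it, and Dhh at 12 h had a log2 fold change of 0.036 in place of -0.02. Otherwise the block changed no call of a member but that of Gli2 at 12 h against START (adjusted p = 0.0628). Between PCI and CTL at 12 h every PCI library correlated best with the CTL library of its own number, and the block gave 392 calls there. Between PCI and CTL at 4 h, 24 genes were called, and 46 without the filter, 114 with DESeq2 (1 member) and 0 in the fit to those groups alone (541 at an unadjusted p under 0.05). At 8 h 667 genes and 1 member became 1084 and 2 with DESeq2, the members were 2 by library sizes alone and 3 in the compared groups alone. At 12 h 361 became 683 with DESeq2 and 799 in the compared groups alone. The change of the PCI effect had 13 calls, and 21 by library sizes alone, 30 without the filter, 115 with DESeq2 and 2 in the 4 groups alone. In CTL from 8 to 12 h, 1601 became 2404 with DESeq2 and 3005 in the compared groups alone, with 3 members. Against START, 5734 at 4 h became 3780 in the compared groups alone, and the 4 members at 12 h became 2 there and 2 without the filter.

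Leaving out 1 library at a time gave 3 to 54 genes at 4 h, 272 to 711 at 8 h and 128 to 257 at 12 h between PCI and CTL, with 0 to 1, 1 to 1 and 0 to 2 members. Against START it gave 4895 to 5891, 5919 to 8164 and 7961 to 10045 genes, with 5 to 8, 2 to 4 and 2 to 4 members. At 4 h the 8 arose without START replicate 1, where Hhip passed the filter. From 4 to 8 h it gave 2295 to 3410 genes and 2 to 4 members, from 8 to 12 h 606 to 1555 and 0 to 0, and for the change of the effect 0 to 39 and 0 to 0. Signs of uncalled values changed for Dhh (-0.11 to 0.38) and Gli3 (-0.51 to 0.041) from 8 to 12 h, Gli3 (-0.61 to 0.087) from 4 to 8 h, and Gli1 (-0.43 to 1.40), Gli2 (-0.55 to 0.26) and Smo (-0.34 to 0.23) at 8 h against START. They also changed between PCI and CTL for Dhh (-0.18 to 0.25) and Ptch1 (-0.16 to 0.14) at 12 h and Gli2 (-0.051 to 0.36) at 4 h, and for the change of the effect on Ihh (-0.38 to 0.30).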
